A study of Homo sapiens with 36 samples.

Results

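The 10 genes described here encode the hypoxia-inducible factors (HIF), the enzymes that control them and targets of theirs outside glycolysis. They were taken by symbol: EPAS1, HIF1A, ARNT, EGLN1, EGLN3, VEGFA, ADM, BNIP3, NDRG1 and ANKRD37. Each of the 10 was found on 1 line of each of the 3 deposited tables, among 60642, 57820 and 13707 genes. Their levels were compared across 36 RNA libraries from 2 human leukemia cell lines, in which members of a complex of LMO2, LDB1 and TAL1 were depleted.

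K562 is a line from chronic myeloid leukemia in blast crisis with erythroid features, and HEL is an erythroleukemia line. In the largest set, 24 K562 libraries came from parental cells, from cells labelled LMO2 control, and from LMO2 degron cells labelled rep 1 and rep 2, which are read here as 2 degron lines. Each of these 4 lines gave 2 libraries, bio rep 1 and bio rep 2, on day 0 with no dTAGv1, and on day 1 and day 4 with 750 uM dTAGv1, as the labels write the dose. dTAGv1 is a molecule that brings a degron-tagged protein to a ubiquitin ligase for breakdown. All 4 lines received it, so the parental and LMO2 control cells serve as the control lines for compound and time. Neither the clonality of a line nor the construct in the LMO2 control cells is stated in the labels. The HEL cells were electroporated with non-targeting siRNA, TAL1 siPool 1 or TAL1 siPool 2, and each of these groups has 3 libraries. The last 3 libraries are K562 cells with a control shRNA, LDB1 shRNA 1 or LDB1 shRNA 2, 1 library each, so this set allows no test. The labels call the degron and HEL libraries bio reps without naming separate cultures, so the p-values measure only the spread between these libraries. The RNA is from bulk cells, in which fewer cells of a type and less RNA per cell cannot be told apart.

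HIF1A and EPAS1 (also called HIF-2 alpha) encode alpha subunits that bind DNA together with the beta subunit ARNT and switch on genes for survival at low oxygen. With oxygen present, the prolyl hydroxylases EGLN1 and EGLN3 mark the alpha subunits for destruction, and EGLN3 is itself a HIF target. The alpha subunits are controlled mainly as proteins, which RNA libraries do not measure. Among the targets, VEGFA is a growth factor for blood vessels, ADM is a secreted peptide that widens vessels, and BNIP3 is an outer mitochondrial membrane protein that directs mitochondria to autophagy. NDRG1 is a stress-induced cytoplasmic protein, and ANKRD37 is a small ankyrin-repeat protein induced by HIF1A.

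HIF binds a short core, ACGTG or GCGTG, in the DNA of its targets. The upstream 250 bases of 5 members are shown because these are the 2 alpha subunits and the 3 targets around which the results below turn. The sequences are from the RefSeq promoter table on GRCh38.p14, 5′ to 3′ on the gene's own strand, with each match to the 2 cores on either strand in capitals. They lie at chr2:46297157-46297406 (plus strand, EPAS1), chr14:61695263-61695512 (plus strand, HIF1A), chr4:185396591-185396840 (plus strand, ANKRD37), chr10:131981924-131982173 (minus strand, BNIP3) and chr14:33951075-33951324 (minus strand, EGLN3).
EPAS1: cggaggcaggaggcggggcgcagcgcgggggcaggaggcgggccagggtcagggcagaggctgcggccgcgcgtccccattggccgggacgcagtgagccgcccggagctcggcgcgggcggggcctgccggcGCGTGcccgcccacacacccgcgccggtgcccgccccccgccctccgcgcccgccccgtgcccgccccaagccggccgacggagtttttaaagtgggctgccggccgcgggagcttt
HIF1A: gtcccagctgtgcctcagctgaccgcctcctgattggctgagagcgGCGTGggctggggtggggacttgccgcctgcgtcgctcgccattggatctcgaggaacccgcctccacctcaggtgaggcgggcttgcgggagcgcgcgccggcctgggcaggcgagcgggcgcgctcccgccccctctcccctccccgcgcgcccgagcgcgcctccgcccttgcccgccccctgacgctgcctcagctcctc
ANKRD37: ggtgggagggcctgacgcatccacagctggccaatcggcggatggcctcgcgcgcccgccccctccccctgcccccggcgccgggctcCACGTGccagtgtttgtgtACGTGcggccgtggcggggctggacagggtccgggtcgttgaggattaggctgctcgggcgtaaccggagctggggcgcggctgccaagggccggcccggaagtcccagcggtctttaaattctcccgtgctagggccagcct
BNIP3: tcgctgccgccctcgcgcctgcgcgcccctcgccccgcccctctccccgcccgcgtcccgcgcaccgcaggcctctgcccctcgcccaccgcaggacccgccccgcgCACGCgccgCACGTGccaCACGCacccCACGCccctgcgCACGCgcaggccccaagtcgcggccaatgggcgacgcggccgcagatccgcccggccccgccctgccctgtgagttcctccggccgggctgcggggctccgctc
EGLN3: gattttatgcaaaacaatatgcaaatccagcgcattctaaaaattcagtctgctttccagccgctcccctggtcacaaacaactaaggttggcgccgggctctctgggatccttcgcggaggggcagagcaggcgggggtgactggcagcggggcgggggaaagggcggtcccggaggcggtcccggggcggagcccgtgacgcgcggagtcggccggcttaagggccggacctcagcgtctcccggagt

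The upstream bases of 8 of the 10 members were searched. Entries on chromosome 8, where NDRG1 lies, were left out beforehand, and no entry was matched to VEGFA. BNIP3 held 6 matches and ANKRD37 held 3, where the palindrome CACGTG counts once on each strand. EPAS1, HIF1A, ADM and EGLN1 held 1 match each, and EGLN3 and ARNT held none in this window. Of 27305 promoters of this length, 43.1% held at least 1 match and 19.5% at least 2. GATA factors, which bind beside the TAL1 complex, have a short motif of their own that was searched on both strands. The form AGATAA was in none of the 8, nor was TGATAA. The same held for AGATAG, and for the last form, TGATAG. Of all promoters, 22.9% held at least 1 of these forms. A match describes the letters only, and no binding data were analysed here.

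Library sizes were 17.2 to 26.3 M reads in the K562 degron set and 15.9 to 27.03 M counts in HEL, where M stands for 1e6. TAL1 RNA in HEL stood at 466 ± 26.1 CPM (counts per 1e6 counts; SD, n = 3) with the non-targeting pool, at 179 ± 12.7 with siPool 1 and at 188 ± 7.80 with siPool 2. LDB1 RNA in the shRNA set stood at 468 TPM (transcripts per 1e6 transcripts) in the control, and at 62.4 and 69.6 with the shRNAs. LMO2 RNA averaged 34.7 to 41.0 FPKM (fragments per 1e6 fragments and per kilobase of gene) by day in parental cells, 250 to 365 in the LMO2 control line and 139 to 250 in the degron lines. A degron removes protein, so LMO2 RNA does not test the depletion. Summed FPKM of 12 erythroid markers was 791 to 2020 in control-line and 329 to 1285 in degron-line libraries, and 6 monocyte markers summed to 4.12 to 17.4 against 26.5 to 116, with CSF1R, FCGR3A and S100A8 near 0. Summed FPKM of 7 endothelial markers, a cell type rich in EPAS1, was 0.669 to 1.76 against 0.825 to 4.42, with CDH5, KDR, TEK and VWF near 0. The part of these shifts in the results below was not tested.

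EPAS1 separated the K562 lines before any dTAGv1 was added. On day 0 its level was 1.34 and 1.22 FPKM in the parental libraries (bio rep 1 and 2), 0.949 and 1.5 in the LMO2 control line, 5.94 and 8.34 in degron line 1 and 12.2 and 14.4 in degron line 2. Every degron library therefore lay above every control-line library, as for 11.4% of all genes in that direction. The means were 10.2 ± 3.81 against 1.25 ± 0.231 FPKM (SD, n = 4 each). The difference was 2.26 ± 0.23 (log2 of FPKM + 1, ± SE; limma adjusted p = 9.4e-06), a scale that understates folds of low genes. It was called in each of 8 fits that left out 1 library. HIF1A did not separate the lines: its 4 control-line libraries held 6.56 to 7.37 FPKM and its 4 degron libraries 6.50 to 8.18, and the difference was 0.05 ± 0.12 (limma adjusted p = 0.83).

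The second member called on day 0 was the hydroxylase EGLN3. It stood at 4.62 and 3.83 FPKM in parental cells and 4.60 and 4.31 in the LMO2 control line, against 12.8 and 7.88 in degron line 1 and 32.2 and 21.6 in degron line 2. All 4 degron libraries were higher, as for 11.4% of all genes. Line 2 was highest in both bio reps, as it was for EPAS1. The difference was 1.71 ± 0.32 (limma adjusted p = 0.0018). Thus 2 of the 8 members that passed the filter on low FPKM were higher and none was lower, where 16.8% of all 15348 genes tested were called and 10.6% of all were called higher. The median difference of the 8 was 0.28, against 0.02 over all genes.

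The remaining members did not pass on day 0. ARNT (0.20 ± 0.19, limma adjusted p = 0.53), EGLN1 (0.21 ± 0.18, limma adjusted p = 0.49), VEGFA (0.35 ± 0.62, limma adjusted p = 0.77) and ANKRD37 (0.71 ± 0.31, limma adjusted p = 0.14) had overlapping groups. BNIP3 averaged 33.0 ± 12.7 FPKM in the control-line and 23.4 ± 8.90 in the degron libraries, a difference of -0.47 ± 0.37 (limma adjusted p = 0.44). With bio rep as a block the SE of BNIP3 fell to 0.13 and it was called lower (limma adjusted p = 0.011), giving 3 of 8 members against 30.8% of all genes. ADM and NDRG1 did not reach the filter of 1 FPKM in 2 libraries. NDRG1 stood at 0.154 to 0.444 FPKM in the control-line and 0.525 to 0.804 in the degron libraries, with no overlap, as for 11.4% of all genes in that direction. On the reads recovered from the FPKM values, its edgeR difference was 1.02 ± 0.33 (adjusted p = 0.044). ADM held 0.0949 to 1.32 FPKM in the degron libraries, which enclosed the control-line range of 0.254 to 0.525.

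**Figure D1:**
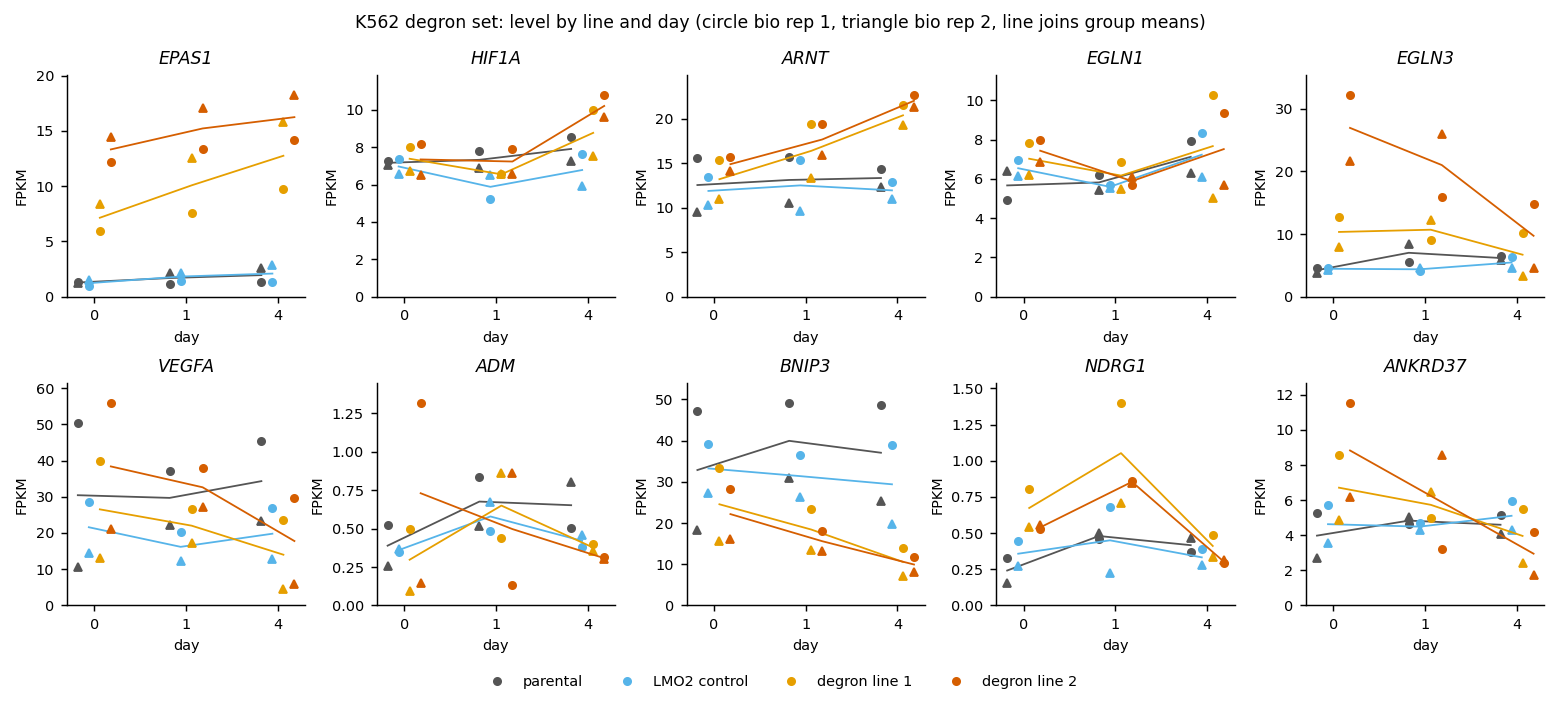
FPKM of each of the 10 genes (vertical axes) in the 24 K562 libraries by day (horizontal axes), with 1 colour per line, 1 symbol per bio rep and lines joining group means. EPAS1 of all degron libraries, from 5.94 to 18.3 FPKM, lies above all control-line libraries, from 0.949 to 2.86, while HIF1A of the lines overlaps.

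The larger lists of the same pathway, which hold no member, held both called and uncalled genes on day 0. Of 27 other non-glycolytic HIF targets tested, 8 were higher and 1 lower, with a median difference of 0.40. Of all genes, 16.8% were called and 10.6% were called higher. With the block 15 of these targets were higher and 1 lower, against 30.8% of all genes called. Of 12 oxygen-sensing genes (hydroxylases, VHL complex and coactivators) limma called none, with 5 at an unadjusted p under 0.05, 3 higher and 2 lower with the block and 0 by edgeR on recovered reads. Of 5 targets known to prefer EPAS1, limma called none, with 0 at an unadjusted p under 0.05 and 0 with the block or by edgeR. Of 20 glycolytic targets, 4 were higher and 1 lower.

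EPAS1 also separated the lines on day 1 and day 4. On day 1 it stood at 1.19 and 2.18 FPKM in parental cells, 1.46 and 2.18 in the LMO2 control line, 7.58 and 12.6 in degron line 1 and 13.4 and 17.1 in degron line 2. On day 4 the same pairs were 1.29 and 2.61, 1.32 and 2.86, 9.70 and 15.8, and 14.2 and 18.3 FPKM. Degron libraries stayed above control-line libraries on both days, as 19.3% of all genes did on day 1 and 28.2% on day 4. Ordered by mean, the 6 control groups ran from 1.22 FPKM (LMO2 control, day 0) to 2.09 (LMO2 control, day 4) and the 6 degron groups from 7.14 (line 1, day 0) to 16.2 (line 2, day 4). Neighbours in that order had overlapping libraries, except at the step from control lines to degron lines, between 2.86 and 5.94 FPKM.

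The change that followed dTAGv1 in the degron lines beyond that of the control lines, called the degron-specific change, was near 0 for EPAS1. It was 0.02 ± 0.32 on day 1 and 0.11 ± 0.32 on day 4 (limma adjusted p = 0.85 on day 4), and its sign turned under several other settings, to -0.21 on day 4 by edgeR on recovered reads. Within bio rep 1 the day 4 value was 0.30 and within bio rep 2 it was -0.08. EPAS1 was higher in bio rep 2 than in bio rep 1 in all but 1 of the 12 line-by-day pairs, whereas VEGFA, BNIP3 and ARNT were lower in bio rep 2 in 12 of 12. HIF1A stood at 8.55 and 7.26 FPKM in parental and 7.65 and 5.90 in LMO2 control cells on day 4, against 9.998 and 7.53 in degron line 1 and 10.8 and 9.60 in degron line 2. Those groups overlapped, and the degron-specific change of HIF1A was 0.28 ± 0.16 (limma adjusted p = 0.25).

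FPKM is scaled to gene length, so the 2 alpha subunits can be set against each other within a library. The ratio of EPAS1 to HIF1A (FPKM over FPKM) was 0.129 to 0.485 in the 12 control-line libraries and 0.741 to 2.61 in the 12 degron libraries. HIF1A was thus the higher transcript in every control-line library. In the degron libraries EPAS1 was the higher one except in degron line 1 in bio rep 1 on day 0, with 5.94 against 8.02 FPKM, and on day 4, with 9.70 against 9.998. The log2 ratio, with 0.1 added to each level, was higher in degron than in control-line libraries by 2.82 on day 0, 2.70 on day 1 and 2.47 on day 4.

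**Figure D2:**
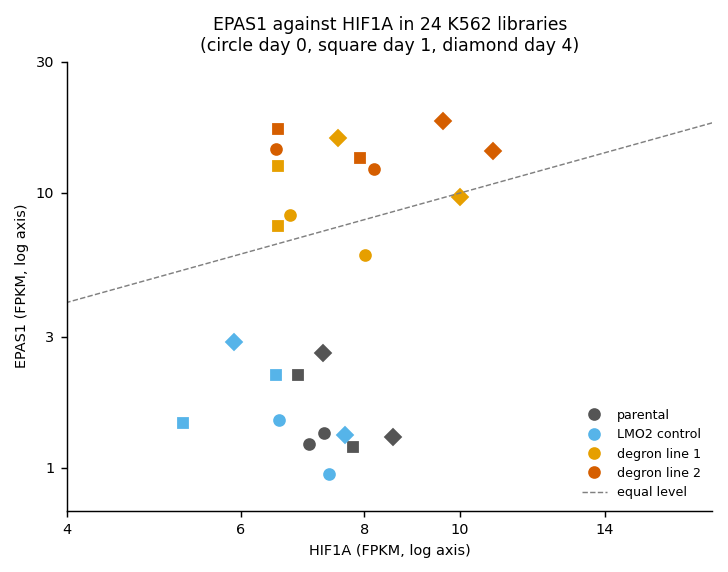
EPAS1 FPKM (vertical, log axis) against HIF1A FPKM (horizontal, log axis) in each of the 24 K562 libraries, coloured by line with 1 symbol per day; the dashed line marks equal levels. Control-line libraries lie below the line with a ratio of at most 0.485, and 10 of the 12 degron libraries lie above it.

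On day 1 no member was called for its degron-specific change. Limma called 0 of 8, with 0 at an unadjusted p under 0.05, 0 with the block and 0 by edgeR on recovered reads, and it called 0.0782% of all genes. The 8 changes ran from -0.55 for BNIP3 to 0.20 for ARNT. Day 1 nevertheless had BNIP3 in degron libraries (23.4 and 13.4 FPKM in line 1, 18.1 and 13.1 in line 2) below all control-line libraries (49.0, 30.9, 36.5 and 26.3 FPKM). This separation was seen in that direction for 10% of all genes. EGLN3, at 9.08 to 26.0 FPKM in degron and 4.14 to 8.43 in control-line libraries, was apart in the other direction, as on day 0. So was NDRG1, at 0.710 to 1.40 against 0.221 to 0.679 FPKM. Of all genes, 19.3% were apart in that direction on day 1.

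By day 4, EGLN3 had come down from its day 0 level in the degron lines. It stood at 6.43 and 5.92 FPKM in parental cells, 6.41 and 4.51 in the LMO2 control line, 10.1 and 3.29 in degron line 1 and 14.8 and 4.64 in degron line 2. The lines, which were apart on day 0, overlapped on day 4, with means of 5.82 ± 0.902 in control-line and 8.21 ± 5.29 FPKM in degron libraries (SD, n = 4). The degron-specific change was -1.45 ± 0.45 (limma adjusted p = 0.036). With bio rep as a block this change had an SE of 0.43 (limma adjusted p = 0.016). It shares its day 0 libraries with the day 0 difference above, so the 2 results are not independent. Without the block EGLN3 was the single member called of 8, where 19.8% of genes were called and 8.18% called lower. All 8 had a median of -0.64, against 0.06 over all genes. A share of 1 in 8 is near that background. The fits below that leave out 1 library also have no block. The call of EGLN3 was kept without parental day 0 bio rep 1, LMO2 control day 4 bio rep 2, either degron line's day 0 bio rep 2 or either degron line's day 4 bio rep 1, and lost without any 1 of the other 10 of the 16 libraries (adjusted p from 0.0069 to 0.084).

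Bio rep 2 carried the lowest values of several targets on day 4, and the bio rep numbers paired the libraries. With bio rep as a block, limma called 5 of 8 members, against 35.6% of all genes, 20.1% higher and 15.6% lower. BNIP3 was at 48.7 and 25.4 FPKM in parental and 38.9 and 19.8 in LMO2 control cells on day 4, against 14.03 and 7.09 in degron line 1 and 11.6 and 8.23 in degron line 2. Every degron library of BNIP3 was below every control-line library, as for 20.2% of all genes. Its degron-specific change was -1.09 ± 0.52 without the block (limma adjusted p = 0.16) and had an SE of 0.18 with it (limma adjusted p = 0.00038). Within bio rep 1 and bio rep 2 it was -1.22 and -0.96.

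ARNT, the shared beta subunit, lay higher in the degron lines on day 4. On day 4 it stood at 14.3 and 12.4 FPKM in parental cells, 12.9 and 11.002 in the LMO2 control line, 21.5 and 19.3 in degron line 1 and 22.7 and 21.3 in degron line 2, so no degron library overlapped the control lines, as for 28.2% of all genes. Its degron-specific change was 0.50 ± 0.27 (limma adjusted p = 0.20), and with the block it had an SE of 0.14 and was called higher (limma adjusted p = 0.011).

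VEGFA had the largest SE of the tested members. It stood at 45.4 and 23.2 FPKM in parental cells, 26.9 and 12.7 in the LMO2 control line, 23.6 and 4.41 in degron line 1 and 29.6 and 5.93 in degron line 2 on day 4. The groups overlapped, and the degron-specific change was -1.33 ± 0.88 (limma adjusted p = 0.32), or -0.70 within bio rep 1 and -1.97 within bio rep 2. With the block it had an SE of 0.40 and was called lower (limma adjusted p = 0.018). The day 4 levels of ANKRD37 were 5.15 and 4.04 FPKM in parental, 5.93 and 4.28 in LMO2 control cells, 5.52 and 2.40 in degron line 1 and 4.18 and 1.72 in degron line 2. Its change was -1.17 ± 0.44 (limma adjusted p = 0.075), and with the block it was called lower (SE 0.39, limma adjusted p = 0.031).

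Of the other members, EGLN1 had a degron-specific change of -0.18 ± 0.26 on day 4 (limma adjusted p = 0.67), with 5.05 to 10.3 FPKM in degron and 6.11 to 8.35 in control-line libraries. NDRG1, which was above the control lines on day 0, overlapped them on day 4, at 0.293 to 0.490 FPKM in degron and 0.277 to 0.466 in control-line libraries. Its change by edgeR on recovered reads was -1.20 ± 0.47 (adjusted p = 0.094), and with the block -1.24 (adjusted p = 0.017). ADM was at 0.300 to 0.402 FPKM in degron and 0.380 to 0.801 in control-line libraries on day 4, and its change by edgeR on recovered reads was -1.01 ± 0.85 (adjusted p = 0.47). ANKRD37 overlaps UFSP2 on the opposite strand, and no source used here states that strand was counted, so reads of the 2 genes may be mixed: UFSP2 averaged 11.7 FPKM and ANKRD37 5.14.

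**Figure D3:**
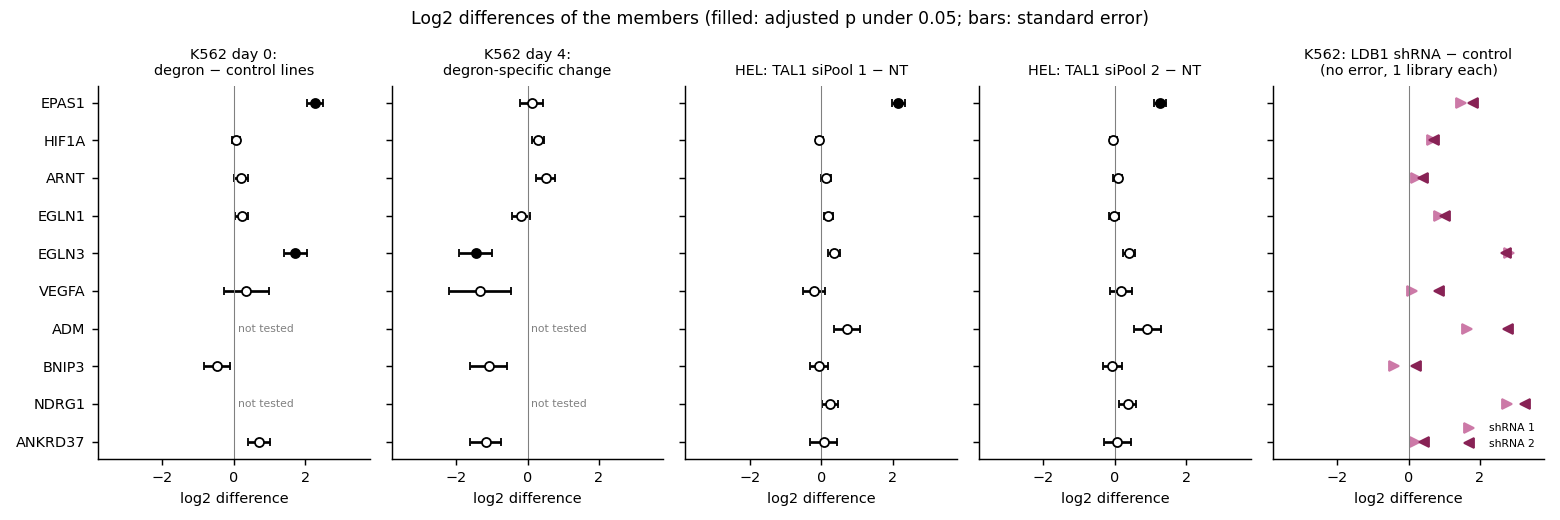
Log2 differences (horizontal axes) of the 10 genes (vertical axis) in 5 panels: degron against control lines on day 0, the degron-specific change on day 4, each TAL1 siPool against non-targeting (NT) in HEL, and each LDB1 shRNA against its control. Points with bars are the estimate ± 1 SE and are filled where the adjusted p is under 0.05, and the LDB1 triangles have no error; EPAS1 is far right on day 0 (2.26) and with both pools (2.16 and 1.26) and near 0 for the day 4 change (0.11).

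The 2 degron lines were not shown to differ in these changes. Within degron line 2, EGLN3 fell by 1.54 ± 0.45 from day 0 to day 4 (limma adjusted p = 0.022) and ANKRD37 by 1.33 ± 0.44 (limma adjusted p = 0.038), so 2 of 8 members were called against 24.9% of all genes. Within degron line 1, limma called 0 of 8, with 3 at an unadjusted p under 0.05, against 20% of all genes. With the block, limma called 3 of 8 in line 1, against 35.9% of all genes: EPAS1 and ARNT higher and BNIP3 lower. In line 2 it called 6 of 8 with the block, against 39.2% of all genes: HIF1A and ARNT higher, and EGLN3, VEGFA, BNIP3 and ANKRD37 lower. The change of EPAS1 was 0.74 ± 0.32 in line 1 (limma adjusted p = 0.12, and 0.0026 with the block) and 0.26 ± 0.32 in line 2 (limma adjusted p = 0.60, and 0.21 with the block). Tested directly, the difference between the lines was called for 0 of 8 members, with 0 at an unadjusted p under 0.05, 0 with the block and 0 by edgeR, against 0.013% of all genes. For EGLN3 that difference was -0.86 ± 0.64 and for EPAS1 -0.47 ± 0.45.

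In the control lines, which also received dTAGv1, no member passed the test over time. Limma called 0 of 8 members and 0% of all genes on day 1 and on day 4, with 0 members and with 657 and 509 genes at an unadjusted p under 0.05, and 0 with the block or by edgeR on recovered reads. EPAS1 had a change of 0.28 ± 0.23 on day 1 and of 0.39 ± 0.23 on day 4.

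Among 12 oxygen-sensing genes on day 4, 3 had a higher degron-specific change and none a lower one, where 19.8% of all genes were called, with a median of 0.04 against 0.06 over all genes. With the block 3 were higher and 2 lower, against 35.6% of all genes called. The 3 called without the block were CREBBP and EP300, coactivators that HIF recruits, and HIF1AN, the asparagine hydroxylase that blocks that recruitment. CREBBP averaged 5.15 ± 0.376 FPKM in degron libraries on day 0 and 8.07 ± 0.315 on day 4, against 4.30 ± 0.279 and 3.91 ± 0.239 in the control lines (SD, n = 4), a change of 0.67 ± 0.10 (limma adjusted p = 0.00037). EP300 went from 7.99 ± 0.588 to 12.6 ± 0.808 FPKM in the degron lines, and HIF1AN from 3.35 ± 0.0875 to 5.03 ± 0.314.

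Of 27 other non-glycolytic targets tested, 1 rose and 2 fell on day 4, where 19.8% of all genes were called, with a median of -0.31. With the block 2 rose and 8 fell, against 35.6% of all genes called. The gene that rose was CA12, a membrane carbonic anhydrase, which averaged 0.457 ± 0.180 FPKM on day 0 and 2.06 ± 1.17 on day 4 in degron libraries, against 0.0856 and 0.0492 in the control lines. CA12 reached 1 FPKM in no library but those of the degron lines after dTAGv1, so it passed the filter on low values through the libraries where it was high, and its call supports nothing. CA9, the related carbonic anhydrase widely used as a hypoxia marker, went from 4.12 ± 2.66 to 0.144 ± 0.152 FPKM, with 1.22 and 1.32 in the control lines (limma adjusted p = 0.0083). FAM162A, a mitochondrial protein, went from 12.8 ± 2.34 to 7.83 ± 2.09 FPKM (limma adjusted p = 0.041). CA9 had been called higher in the degron lines on day 0, by 1.11, as EGLN3 had.

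Targets known to prefer EPAS1 were not called on day 4 without the block. Limma called 0 of 5, with 3 at an unadjusted p under 0.05, where 19.8% of all genes were called. With the block it called 1, which was higher, against 35.6% of all genes. By edgeR on recovered reads 1 was called, as were 2670 of all genes. The median of the 5 was -0.96. CYBRD1, a ferric reductase and the most abundant of the 5, had a degron-specific change of 0.93 ± 0.46 (limma adjusted p = 0.18). For the cyclin CCND1 and the growth factor PDGFB the values were below 0, at -0.96 ± 0.38 (limma adjusted p = 0.092) and -0.96 ± 0.36 (limma adjusted p = 0.073). Of 20 glycolytic targets, 11 fell and none rose, PGAM1 and HK1 among them, with a median of -0.96, where 8.18% of all genes were called lower. With the block 18 fell, against 15.6% of all genes.

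In HEL, EPAS1 was higher with TAL1 siRNA, and no other member passed the test over both pools. EPAS1 stood at 5.33, 3.97 and 5.78 CPM in the 3 non-targeting libraries, 25.5, 20.3 and 21.5 with siPool 1 and 12.9, 12.9 and 10.2 with siPool 2. The 3 groups did not overlap. The share of all genes whose HEL groups lay apart was not counted, here or for the members below. Over both pools the difference was 1.71 ± 0.16 (log2 fold change ± SE; edgeR adjusted p = 0.00012), so 1 of 10 members was called where 2.03% of 16688 genes were and 1.2% of all were called higher. The median over the 10 was 0.10, against -0.02 over all genes. EPAS1 was called in each of 9 fits without 1 library.

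The 2 pools differed in the size of the EPAS1 difference. It was higher by 2.16 ± 0.17 with siPool 1 (edgeR adjusted p = 2.6e-05, 4.22% of genes called) and by 1.26 ± 0.17 with siPool 2 (edgeR adjusted p = 0.0041, 1.05% called), which share the non-targeting libraries. Within replicate numbers, siPool 1 gave 4.78, 5.12 and 3.73 times the non-targeting CPM and siPool 2 gave 2.42, 3.26 and 1.76 times. The difference between the pools was -0.90 ± 0.16 (edgeR adjusted p = 0.012), 1 of 10 members against 2.76% of genes. Without siPool 2 replicate 3 it was -0.80 and no longer called (edgeR adjusted p = 0.068). Summed CPM of 6 monocyte markers was 34.3 to 35.9 with the non-targeting pool, 55.2 to 61.7 with siPool 1 and 34.7 to 35.7 with siPool 2. Summed erythroid CPM was 4822 to 4935, 2665 to 3166 and 3121 to 3561. Summed endothelial CPM was 478 to 561 with the non-targeting pool, 467 to 510 with siPool 1 and 520 to 537 with siPool 2, so the non-targeting range overlapped that of each pool and the pools did not overlap. Of 5 endothelial markers tested, edgeR called KDR, TEK and VWF higher with siPool 1 (median of the 5 0.60), and KDR over both pools. It called 0 with siPool 2 (median 0.17, 1 at an unadjusted p under 0.05 and 0 by DESeq2). With bio rep as a block, 3 of the 5 were higher and 1 was lower with siPool 1, where 2888 of 16688 genes were called. The difference between the pools was called by edgeR for 0 of the 5 endothelial markers, with 3 at an unadjusted p under 0.05 and 0 by DESeq2. Their part in the EPAS1 result was not tested.

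HIF1A did not pass the test in HEL. It stood at 126, 110 and 108 CPM with the non-targeting pool, 111, 111 and 109 with siPool 1 and 126, 109 and 97.9 with siPool 2, a difference of -0.05 ± 0.09 (edgeR adjusted p = 0.86). The log2 ratio of EPAS1 to HIF1A was 1.75 higher with TAL1 siRNA; CPM is not scaled to length, so the ratio itself is not read here. ARNT (0.11 ± 0.11, edgeR adjusted p = 0.73) and EGLN1 (0.08 ± 0.11, edgeR adjusted p = 0.80) overlapped between all groups. EGLN3 stood at 7.21, 9.55 and 8.44 CPM with the non-targeting pool, 12.1, 11.2 and 8.68 with siPool 1 and 11.6, 10.02 and 11.6 with siPool 2. The siPool 2 libraries lay above the non-targeting ones, but the difference over both pools, 0.37 ± 0.15, did not pass (edgeR adjusted p = 0.24).

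**Figure D4:**
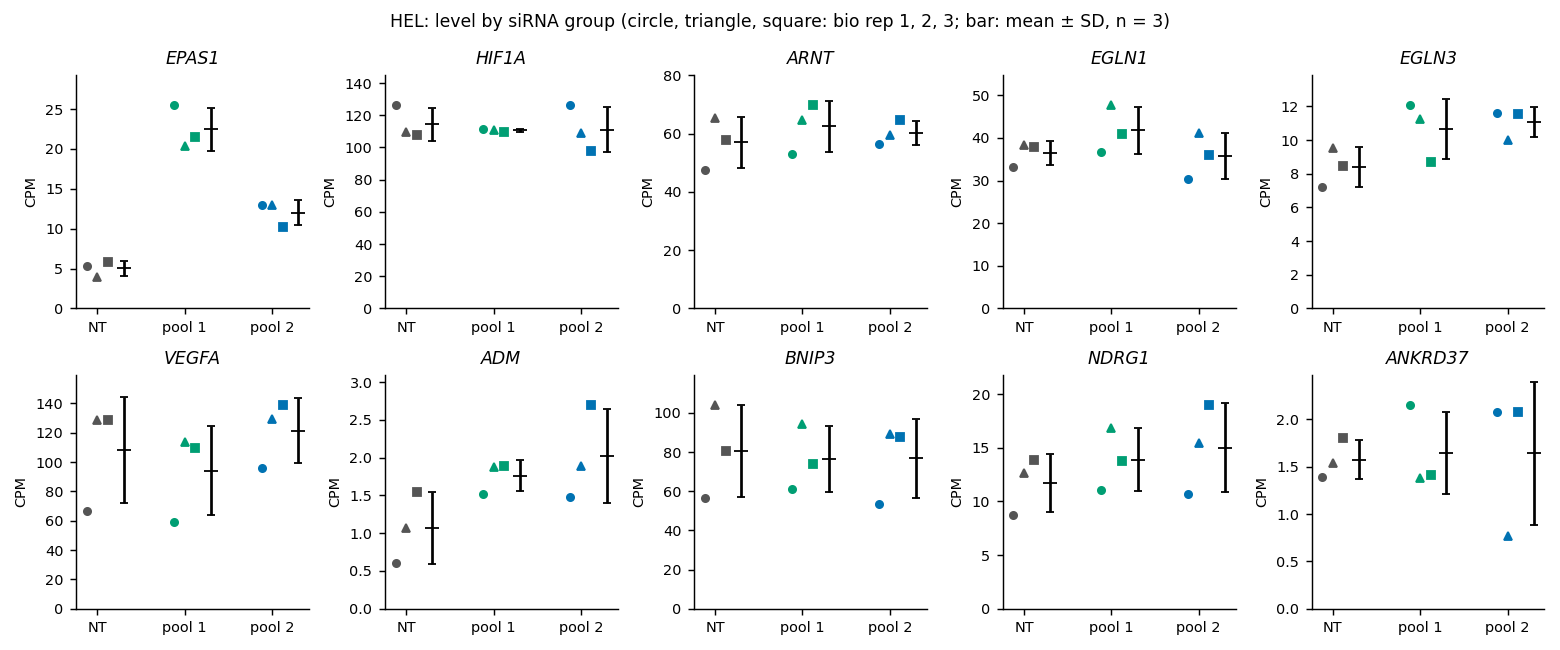
CPM (vertical axes) of each of the 10 genes in the 9 HEL libraries by siRNA group (horizontal axes; NT is the non-targeting pool), with symbols for bio rep and bars for mean ± SD, n = 3. EPAS1 is the gene whose 3 groups lie apart, at 3.97 to 5.78, 20.3 to 25.5 and 10.2 to 12.9 CPM. The share of all genes with groups apart was not counted.

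None of the 5 HIF targets passed the test over both pools. VEGFA stood at 66.5, 129 and 129 CPM with the non-targeting pool, 59.4, 114 and 110 with siPool 1 and 96.3, 129 and 139 with siPool 2 (-0.02 ± 0.27, edgeR adjusted p = 0.99). BNIP3 stood at 56.8, 104 and 80.4 CPM, 61.0, 94.3 and 74.0, and 53.5, 89.2 and 87.5 in the same order (-0.07 ± 0.22, edgeR adjusted p = 0.93). For both genes replicate 1 was the lowest library of each group. NDRG1 held 8.71 to 13.8 CPM without and 10.7 to 19.0 with TAL1 siRNA (0.30 ± 0.20, edgeR adjusted p = 0.54), and ANKRD37 1.39 to 1.80 and 0.767 to 2.15 (0.07 ± 0.32, edgeR adjusted p = 0.95). ADM was low, at 0.600, 1.07 and 1.54 CPM with the non-targeting pool, 1.52, 1.87 and 1.89 with siPool 1 and 1.48, 1.89 and 2.69 with siPool 2. Each TAL1 siRNA library was above the non-targeting library of its own number for ADM, in 6 of 6 cases and by 1.22 to 2.53 times. The pools share the non-targeting libraries, so these cases are not independent, and the share of all genes with this pattern was not counted. By group, each pool overlapped the non-targeting libraries. The ADM difference of 0.82 ± 0.33 did not pass (edgeR adjusted p = 0.25).

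No gene of the 3 related lists was called in HEL over both pools. Of 10 oxygen-sensing genes edgeR called 0, with 1 at an unadjusted p under 0.05 and 0 by DESeq2. Of 26 other non-glycolytic targets it called 0, with 3 at an unadjusted p under 0.05 and 1 by DESeq2, and of 6 EPAS1-preferring targets 0, with 2 and 0. The most abundant of each were CITED2, a competitor of HIF for its coactivators (-0.14 ± 0.08 over both pools), WSB1, a ubiquitin ligase subunit (0.04 ± 0.11), and SLC11A2, an iron transporter (0.07 ± 0.07). The pools differed for CITED2, at 438 to 481 CPM with the non-targeting pool, 456 to 574 with siPool 1 and 329 to 359 with siPool 2. The value was 0.14 ± 0.09 with siPool 1 (edgeR adjusted p = 0.44), -0.42 ± 0.09 with siPool 2 (edgeR adjusted p = 0.042) and -0.57 ± 0.09 between siPool 2 and siPool 1 (edgeR adjusted p = 0.0055). With siPool 1 alone, edgeR called BHLHE40 and KDM3A higher and TMEM45A lower among the 26 other targets, CCND1 higher among the 6 EPAS1-preferring ones and 0 oxygen-sensing genes (1 at an unadjusted p under 0.05, 0 by DESeq2), against 4.22% of all genes. With siPool 2 alone it called CITED2 lower, 0 of the other targets (0 at an unadjusted p under 0.05, 0 by DESeq2) and 0 of the EPAS1-preferring ones (2 and 1), against 1.05% of all genes. Of 20 glycolytic targets edgeR called 0 over both pools, with 4 at an unadjusted p under 0.05 and 2 by DESeq2.

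In the LDB1 set, 4 of the 10 members were higher with both shRNAs by a log2 ratio of at least 1 (TPM + 1), and none was lower. Of 12445 genes with a highest TPM of at least 5, 8.94% were higher by that measure and 2.21% lower. NDRG1 stood at 1.66 TPM with the control shRNA and at 16.8 and 24.4 with LDB1 shRNA 1 and 2, EGLN3 at 5.81, 46.5 and 44.1, ADM at 1.89, 7.93 and 18.8, and EPAS1 at 8.64, 25.5 and 32.9. Their log2 ratios were 2.75 and 3.26 for NDRG1, 2.80 and 2.73 for EGLN3, 1.63 and 2.78 for ADM and 1.46 and 1.81 for EPAS1. NDRG1 and ADM were under 5 TPM in the control and reached that limit only with the shRNAs, so their part of the count supports nothing. Both shRNAs are set against the same control library, so an error of that library enters both ratios. The median over all genes was 0.21 with shRNA 1 and 0.15 with shRNA 2, and the count of 4 was unchanged after centring on it.

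HIF1A lay between. It stood at 18.9, 30.6 and 31.7 TPM, log2 ratios of 0.67 and 0.71, and the ratio of EPAS1 to HIF1A was 0.456 in the control and 0.834 and 1.04 with the shRNAs. EGLN1 stood at 29.1, 53.4 and 59.99 TPM, of which shRNA 2 reached the threshold (0.85 and 1.02). VEGFA was the most abundant member, at 240, 259 and 432 TPM. The shRNAs did not give the same direction for BNIP3, at 71.0, 53.6 and 81.8 TPM. ANKRD37 (16.4, 18.6 and 22.3 TPM) and ARNT (46.7, 53.9 and 62.1 TPM) had ratios of at most 0.42.

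**Figure D5:**
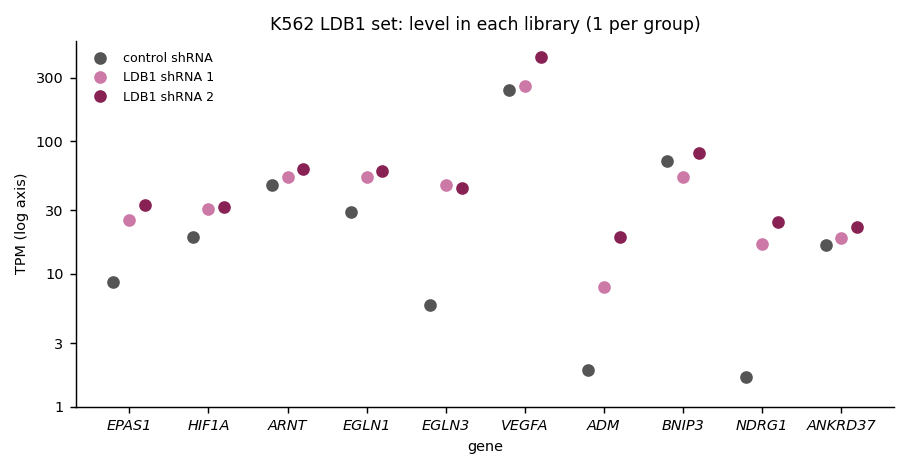
TPM (vertical, log axis) of the 10 genes (horizontal) in the 3 libraries of the LDB1 set, 1 point per library and no error. For EPAS1, EGLN3, ADM and NDRG1 both LDB1 shRNA points lie well above the control, while BNIP3 has 1 on each side.

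Of 25 other non-glycolytic targets in the LDB1 set, 5 were higher with both shRNAs and none lower. Of all genes, 8.94% were higher by that measure and 2.21% lower. CA9 stood at 1.38, 23.0 and 28.8 TPM, ANGPTL4, a secreted lipase inhibitor, at 1.82, 9.83 and 8.20, TMEM45A at 1.24, 8.10 and 6.11, and BHLHE40, a transcriptional repressor, at 156, 381 and 596. Of 5 EPAS1-preferring targets 2 were higher, the lysyl oxidase LOXL2 (0.759, 8.26 and 8.10 TPM) and cyclin D1, CCND1 (17.0, 53.0 and 44.8 TPM). CA9, ANGPTL4, TMEM45A and LOXL2 reached the limit of 5 TPM only with the shRNAs, so their part of these counts supports nothing. Of 11 oxygen-sensing genes 1 was lower, CITED2 at 314, 104 and 138 TPM, and none of 19 glycolytic targets passed in either direction. Summed TPM of the 12 erythroid markers was 15314, 6723 and 9276 in the same order, and of the 2 monocyte markers listed 51.7, 103 and 92.6. Their part in these ratios was not tested.

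EPAS1 was higher in the degron lines than in the control lines before dTAGv1 as well as after it. Its degron-specific change was near 0, at 0.02 on day 1 and 0.11 on day 4. It was also higher with TAL1 siRNA in HEL and with both LDB1 shRNAs. EGLN3 was high in the degron lines on day 0 and with both LDB1 shRNAs, and was not called in HEL. After dTAGv1 it went the other way, with a degron-specific change of -1.45 on day 4 (limma adjusted p = 0.036). That call was kept in 6 of 16 fits without 1 library, none of which had a block. BNIP3 was below the control lines in the degron libraries of day 1 and day 4, as were 10% and 20.2% of all genes. On day 0 its groups overlapped, and it was called lower with bio rep as a block (limma adjusted p = 0.011). It had no common direction with the LDB1 shRNAs. With the block limma called 5 of 8 members for the degron-specific change on day 4, against 35.6% of all genes. ARNT was higher, and EGLN3, VEGFA, BNIP3 and ANKRD37 were lower. The designs, units and libraries of the 3 sets differ, so these levels were not tested against each other.

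The genes whose levels most resembled EPAS1 over the 12 line-by-day group means in K562 were XPNPEP1, MYADM, TNRC18, SEC14L1 and VIM, each with a Pearson r of 0.99 among 7402 genes with a mean of at least 5 FPKM. For HIF1A they were TMED5 (0.98), RAB3GAP2 (0.97), TMX3 (0.97), YIPF4 (0.97) and ABHD3 (0.96). Over the 9 HEL libraries, those most like EPAS1 were OAF (0.99), STAT3, PAG1, ARHGAP30 and TES (0.98 each). Among the members, EPAS1 had an r over the K562 group means of 0.86 with ARNT, 0.75 with EGLN3, 0.50 with NDRG1, 0.49 with HIF1A, 0.41 with EGLN1 and -0.88 with BNIP3. The others, ANKRD37, VEGFA and ADM, had an r of 0.14, -0.13 and -0.17. The group means fall into control-line and degron-line blocks and share libraries, so these values describe the groups only.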

How the data were processed

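RNA-seq was deposited for 24 K562 libraries of the LMO2 degron set, 9 HEL libraries and 3 K562 libraries of the LDB1 set. For the degron set the authors deposited FPKM, for HEL raw counts per gene, and for the LDB1 set TPM. The build hg19 and the tools featureCounts, STAR and FastQC are named, with no roles, per the submitters' processing notes; versions and strand settings are not given in the sources used here. Every column was matched to a sample. Of the symbols, 289 stand on more than 1 line of the count table and 18 of the TPM table, none of them a member.

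FPKM values were tested as log2(FPKM + 1) with limma 3.58.1 (R 4.3.3; trended, robust) in 1 fit of 12 line-by-day groups, over the 15348 genes that reached 1 FPKM in 2 or more libraries. The HEL fit used edgeR 4.0.16 (TMM factors, filterByExpr, quasi-likelihood test) over 16688 genes, and CPM uses the TMM-scaled library size. P-values were adjusted by Benjamini-Hochberg over all genes tested, with a threshold of 0.05. LDB1 ratios have a pseudocount of 1 and no test. Whole reads could be recovered from the FPKM for 15347 of the 15348 genes (99.99%, within 0.05 reads), and edgeR was run on them as an alternative chosen after seeing the data, over 17393 genes. Other alternatives were DESeq2 1.42.0, other scalings, filters and pseudocounts, single control or degron lines, and leaving out each library. The scripts were tested on simulated data.

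In K562 the bio rep numbers paired the libraries: over 132 same-number pairs the lowest correlation of deviations from group means was 0.119 and the median 0.377, and each of 24 libraries was closest to its own number. With 2 numbers per group these deviations mirror each other by construction.

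Named list genes are the called ones with the smallest adjusted p (up to 5 a list), otherwise the most abundant; for LDB1, up to 4 a list by the smaller ratio; for likeness, the 5 highest r. The members and lists were chosen with earlier results of these data known.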

Additional observations from a re-analysis of the deposited data

Results flagged for a closer look

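One result stood out because the same contrast gave different sizes in 2 groups. The EPAS1 difference from the non-targeting pool in HEL was smaller with TAL1 siPool 2 than with siPool 1, and siPool 2 minus siPool 1 was -0.90 ± 0.16 on the log2 scale (edgeR adjusted p = 0.012). Without siPool 2 replicate 3 it was -0.80 and not called (edgeR adjusted p = 0.068). All 3 siPool 2 libraries (10.2 to 12.9 CPM) lay below all 3 siPool 1 libraries (20.3 to 25.5 CPM), while TAL1 RNA was at 188 ± 7.80 and 179 ± 12.7 CPM (SD, n = 3). The share of all genes whose pools lay apart in this way was not counted.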

How the results depend on the processing

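EPAS1 and EGLN3 were called on day 0 in each of 8 fits without 1 library (2 to 2 members), and the day 0 count was 4 by edgeR on recovered reads with the replicate block. The count of members with a degron-specific change on day 4, 1 in the fit reported, was 0 with no filter on low FPKM, 0 with parental cells or the LMO2 control line as the only control, 0 with degron line 1 alone, 5 with the replicate block, 6 by edgeR on recovered reads with the block, and 0 to 2 without 1 library. The edgeR counts with the block include NDRG1 (edgeR adjusted p = 0.0051 on day 0 and 0.017 on day 4), which limma did not test. They are thus not out of the same 8 members, and the share of all genes that edgeR called with the block is not given here. Of all genes, limma called 5471 with the block against 3040 without it on day 4, and 4729 against 2576 on day 0. The degron-specific change of EPAS1 turned sign on day 1 with a pseudocount of 0.1 (-0.10), TMM rescaling (-0.0060), the LMO2 control line as the only control (-0.045), degron line 2 alone (-0.10), and edgeR on recovered reads without (-0.18) and with the block (-0.16). On day 4 it turned with a pseudocount of 0.1 (-0.037), degron line 2 alone (-0.13), and edgeR without (-0.21) and with the block (-0.17). Without 1 library it ran from -0.14 to 0.19 on day 1 and from -0.073 to 0.30 on day 4; EGLN1 on day 4 ran from -0.41 to 0.041, VEGFA on day 0 from -0.19 to 0.89 and HIF1A on day 0 from -0.025 to 0.12. With a pseudocount of 1 the log2 ratio of EPAS1 to HIF1A differed by 2.21 on day 0 and by 0.79 and 1.1 with the LDB1 shRNAs. The cause of these moves was not tested.

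In HEL the pairing by replicate number was less clear than in K562, and the fit reported has no block. Over 9 same-number pairs the lowest correlation was 0.0865 and the median 0.123. Between different numbers the median was -0.159 and the highest 0.207, and 6 of 9 libraries were closest to their own number. With the replicate block 2 of 10 members were called over both pools, against 2437 of 16688 genes, ADM the second (0.86, edgeR adjusted p = 0.048). Between the pools 2 of 10 were called with it, against 2431 of 16688 genes. Without replicate number 1 in all groups 2 were called between the pools, and without 1 library 0 to 1. All genes called over both pools numbered 338 in the fit reported, 2437 with the block, 684 by DESeq2 and 716 with no filter. For siPool 1 they numbered 704, 2888 with the block and 1058 by DESeq2, for siPool 2 176, 1694, 377 and, with no filter, 418, and between the pools 461, 2431, 776 and 758. Over both pools VEGFA was 0.011 with the block and ANKRD37 -0.24 without replicate number 1. Without 1 library VEGFA ran from -0.27 to 0.13, HIF1A from -0.091 to 0.030, ARNT from -0.0075 to 0.22, ANKRD37 from -0.05 to 0.23 and BNIP3 from -0.27 to 0.16. With the replicate block edgeR called, over both pools in HEL, 3 of 26 other targets and 2 of 6 EPAS1-preferring targets higher. It called 2 of 20 glycolytic targets higher and 3 lower, 3 of 5 endothelial markers higher and 0 of 10 oxygen-sensing genes. These counts stand against 2437 of all 16688 genes called with the block. ADM and NDRG1 reached 1 FPKM in 1 K562 library each and were not tested by limma, and the LDB1 set has no replicate.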
